A study of Mus musculus with 28 samples.

Results

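The retinas compared here came from the left eyes of mice, in which the optic nerve was left uncrushed. Of these eyes, 7 came from mice given RGFP966 at 10 mg/kg by intraperitoneal injection each day for 7 days (3 females, 4 males) and 6 came from mice given vehicle in the same way (2 females, 4 males). In every mouse of both groups the right optic nerve was crushed, and retinas were taken 7 days after the crush, so none of these eyes came from an uninjured animal. Each library is the polyadenylated RNA of retina from 1 eye as labelled, and the other eyes of the same 13 mice make up the rest of the 26 libraries analysed. The labels name neither strain nor age and do not mention pooling. The 13 libraries are all columns of the deposited table named for an uncrushed retina under RGFP966 or vehicle whose name occurs once among its 28 columns. All genes with a mean of at least 10 normalized counts over the 26 libraries were tested, 15773 of 35999 in the table.

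HDAC3 is a class I histone deacetylase that works inside corepressor complexes such as those built on NCoR1, which nuclear receptors such as the thyroid hormone, retinoic acid and REV-ERB receptors bring to their target genes. RGFP966 is a benzamide that inhibits HDAC3 selectively and reaches the brain. Histone deacetylase inhibition has been studied in the retina as a way to protect ganglion cells, the neurons whose axons form the optic nerve. The comparison asks what the drug does to retinal RNA in an eye without a nerve injury of its own.

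Totals of normalized counts were 18500000 to 20000000 in RGFP966 libraries and 18700000 to 21900000 in vehicle libraries. They averaged 19200000 ± 463000 in RGFP966 libraries and 19700000 ± 1210000 in vehicle libraries (SD, n = 7 and 6, exact permutation test, two-sided, p = 0.368). Some libraries stood apart. Vehicle male D lay far from the other 12 on the second principal component (a score of -59.6, the others between -13.5 and 18.1) and had the highest total. RGFP966 male A and vehicle female A held many lens transcripts, with 76720 and 14940 normalized counts summed over the lens genes, against 540 to 1501 in the other 11. For RGFP966 female A, a free-text label speaks of crush, against the title and the condition label, which were used; its Gfap level of 296 normalized counts lay within the range of the other uncrushed eyes (130.1 to 362), and crushed eyes had 908 to 2131. Letters given to mice in both treatments name different mice.

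No gene passed the test for RGFP966 against vehicle in uncrushed eyes. With limma and Benjamini-Hochberg adjustment over all genes, 0 of 15773 genes had an adjusted p under 0.05 (0% called), and the smallest adjusted p was 0.728. At an unadjusted p under 0.05 there were 782 genes (4.96%), of which 351 were higher (2.23%) and 431 lower (2.73%) in RGFP966 eyes. That split moved with the scaling: 44.9% of these genes were higher as reported, against 69.6% (547 of 786) when all libraries were set to the same total. The p-values were spread nearly evenly, with 700 to 925 genes in each bin of width 0.05. In the same fit, crush in vehicle mice called 842 genes (5.34%). The count stayed at 0 without RGFP966 female A (779 at an unadjusted p under 0.05, smallest adjusted p 0.537), without vehicle male D (666 and 0.639) and without both lens-rich libraries (700 and 0.991). None of the first 5 principal components separated the groups (exact permutation tests, two-sided, n = 7 and 6, adjusted p = 0.448 for each).

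The measurements set limits on the size of a difference. The log2 differences (RGFP966 minus vehicle, on the scale of log2(value + 1), which understates the change of low genes) had a median of -0.0008, and 95% of them lay between -0.46 and 0.49. The 95% interval lay within a 1.5-fold change in either direction for 11117 genes (70.5%) and within a 2-fold change for 14192 (90.0%). Precision followed the level. For genes with a mean of 10 to 100 the median standard error was 0.304 and 17.2% of the intervals lay within 1.5-fold. For a mean of 100 to 1000 these were 0.122 and 86.2%, and for 1000 to 10000 they were 0.0831 and 98.3%. In most genes with a mean of 10 to 100, these unadjusted intervals therefore did not exclude a 1.5-fold change. The adjusted test was stricter, also above 100 normalized counts. The genes Ulk4 and Tenm2, with means of 317 and 312, differed by 0.66 and 0.80 with an adjusted p of 0.728 in limma.

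**Figure D1:**
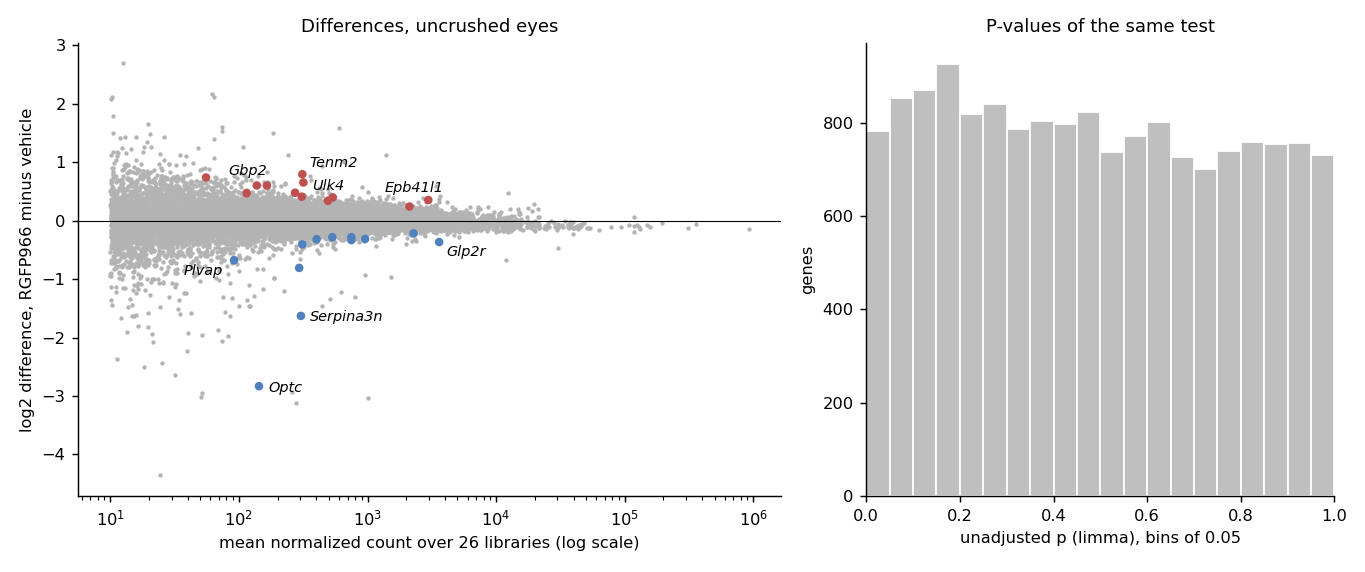
Left, the log2 difference RGFP966 minus vehicle in uncrushed eyes for each of 15773 genes (points) against its mean normalized count over 26 libraries (log scale), with the 12 genes of smallest p that were higher (red) and the 12 that were lower (blue) in RGFP966 eyes. Right, the number of genes in each bin of the unadjusted limma p, which is nearly flat, with 782 genes in the lowest bin.

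None of the genes of the drug's target and its partner complex passed the test. Libraries are listed below as females A, B and C and males A to D for RGFP966 and as females A and C and males A to D for vehicle. Hdac3 had 1689, 1599, 1613, 1612, 1042, 1469 and 1243 normalized counts in RGFP966 eyes, against 1679, 1763, 1201, 1269, 1509 and 1154 in vehicle eyes. The groups overlapped almost entirely, and the log2 difference was 0.01 ± 0.10 (SE) with a 95% interval of -0.20 to 0.21. Of the 6 genes of the corepressor complex 0 passed, and 0 had an unadjusted p under 0.05. Ncor1 differed by -0.03 ± 0.07 and Tbl1xr1, which encodes a scaffold subunit, by -0.22 ± 0.21. Without vehicle male B, which had 1168 normalized counts, Tbl1xr1 was at -0.05. Among 10 other histone deacetylases the differences ran from -0.09 (Hdac9) to 0.24 (Hdac6, the cytoplasmic tubulin deacetylase), with 0 at an unadjusted p under 0.05 and all 10 intervals within 1.5-fold. Among 12 acetyltransferases and bromodomain readers, which write or read the marks that HDAC3 removes, Crebbp, the gene of CBP, was at 0.30 ± 0.10 and Kat2b, the gene of PCAF, at -0.23 ± 0.09, both at an adjusted p of 0.913.

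Genes known to respond to histone deacetylase inhibitors in other cells were examined next. Of 13 tested, 3 had a higher and 10 a lower mean, the median difference was -0.08 against -0.0008 over all genes, and 0 passed. H1f0, the linker histone gene long used as a readout of these drugs, had 798, 767, 844, 907, 875, 859 and 888 normalized counts in RGFP966 eyes, against 717, 907, 1055, 1065, 866 and 1006 in vehicle eyes. The RGFP966 values lay inside the vehicle range, and the difference was -0.12 ± 0.10 with an interval of -0.32 to 0.08. Cdkn1a, the gene of the cell cycle inhibitor p21, differed by -0.08 ± 0.27. The members at an unadjusted p under 0.05 were both lower. They were Gsn, which encodes the actin-severing protein gelsolin, at -0.59 ± 0.20, and Stx11, which encodes a membrane fusion protein, at -0.43 ± 0.19. Of 16 activity and memory genes tested, a class raised in brain by histone deacetylase inhibition in studies of learning, 9 had a higher and 7 a lower mean. Npas4 and Nr4a1, both activity-induced transcription factors, were at 0.52 ± 0.24 and 0.30 ± 0.12, with Fos at 0.19 ± 0.19 and Arc at -0.45 ± 0.30.

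Targets of the receptors that use HDAC3 corepressors had 0 genes that passed in any list. Of 10 thyroid hormone receptor targets 7 had a higher and 3 a lower mean, with a median of 0.03. Dio3, which encodes the deiodinase that inactivates thyroid hormone, had 6.06, 4.37, 11.6, 5.74, 3.71, 1.64 and 2.33 normalized counts in RGFP966 eyes, against 13, 11.9, 19.9, 9.75, 30.4 and 6.20 in vehicle eyes. Vehicle male C was highest and RGFP966 male C lowest, the groups overlapped, and the difference was -1.48 ± 0.53 with an adjusted p of 0.913. In the 19 clock genes, whose rhythm in mouse liver involves REV-ERB and HDAC3, 0 had an unadjusted p under 0.05 and 18 intervals lay within 1.5-fold. Nr1d1, which encodes REV-ERBα, was at -0.03 ± 0.06 and Per1 at -0.01 ± 0.07. Of 9 LXR targets 7 were lower, with Srebf1, a transcription factor of lipid synthesis, at -0.23 ± 0.08 and the cholesterol exporter Abcg1 at -0.16 ± 0.09. Of 10 retinoic acid targets 8 were higher, with a median of 0.16 and Cyp26b1, a retinoic acid hydroxylase, at 0.49 ± 0.27. Without vehicle male D 6 of the 10 were higher with a median of 0.08, and without RGFP966 male A the median was 0.07. Of 12 glucocorticoid targets 11 were lower as reported and 7 with libraries set to the same total, with Zbtb16, a zinc finger transcription factor, at -0.65 ± 0.26 and the co-chaperone gene Fkbp5 at -0.24 ± 0.11. Of 12 PPAR targets 5 were higher, with the acyl-CoA thioesterase gene Acot1 at 0.49 ± 0.22 and the lipid droplet gene Plin4 at -0.91 ± 0.45.

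Metabolic and stress lists stayed close to 0 as well. Of 22 cholesterol synthesis genes 0 had an unadjusted p under 0.05, 21 intervals lay within 1.5-fold and all 22 within 2-fold. The 16 nuclear genes of oxidative phosphorylation ran from -0.15 (Uqcrc1, a core subunit of complex III) to 0.01 (Ndufs1), with 15 lower, or 12 with libraries set to the same total, and all 16 intervals within 1.5-fold. Of 18 genes of the integrated stress response 7 were higher and 11 lower, from -0.23 (Phgdh) to 0.56 (Chac1), with a median of -0.04. That median was -0.09 in females and 0.04 in males fitted alone. The mitochondrial folate enzyme gene Mthfd2 was at 0.40 ± 0.17 and the pseudokinase gene Trib3 at 0.33 ± 0.17. Mthfd2 was at 0.965 in females and 0.0668 in males fitted alone. Of 14 genes of the unfolded protein and heat shock responses 7 were higher, with the transcription factor gene Xbp1 at 0.18 ± 0.08 and the chaperone gene Hsph1 at 0.23 ± 0.11. Over all lists together, which overlap in part, 0 of 666 tested genes passed and 54 had an unadjusted p under 0.05 (8.11%, against 4.96% of all genes), 26 higher and 28 lower. The lists and their members were chosen with earlier results of these data known. The 2 shares are therefore no test of whether listed genes respond more often. List medians lay within 0.2 of 0 for 52 of 56 lists.

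**Figure D2:**
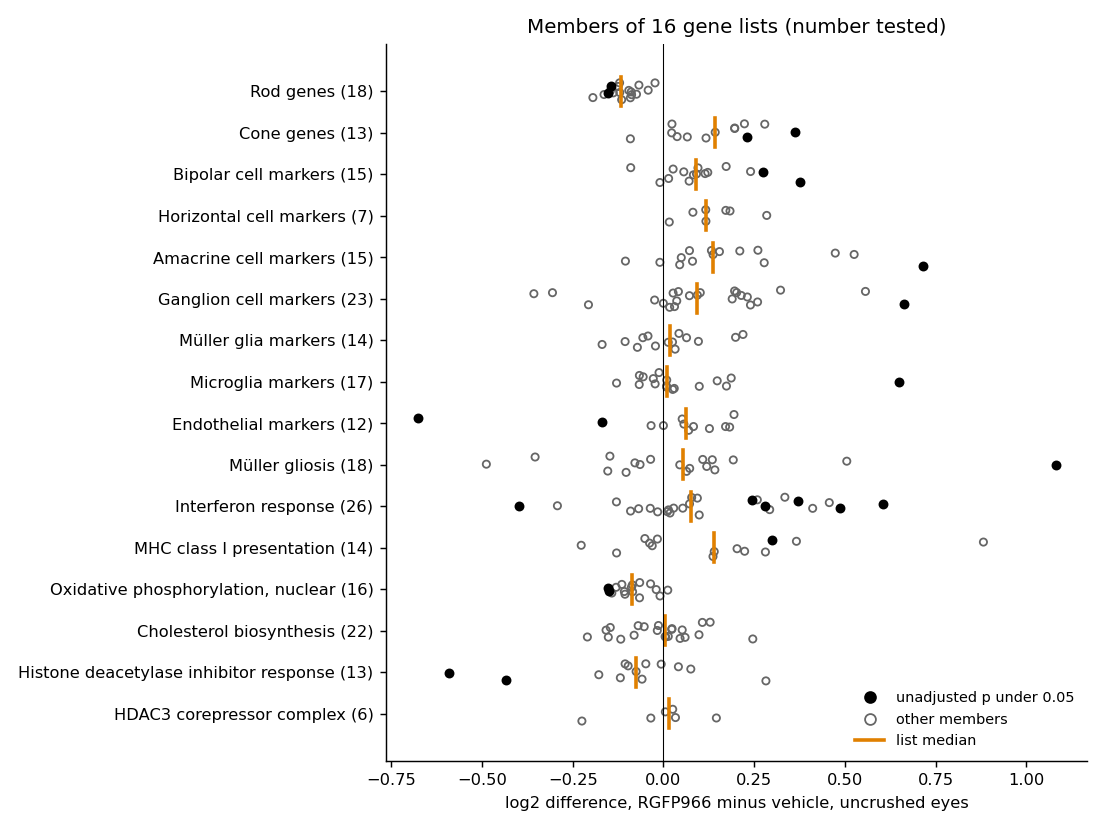
Log2 differences RGFP966 minus vehicle in uncrushed eyes for the tested members of 16 gene lists, 1 point per gene, with filled points for an unadjusted p under 0.05 and an orange mark for the list median. The medians shown lie between -0.12 (rod genes) and 0.14 (cone genes).

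The genes with the smallest p are given as a description, since that p picked them. On the higher side the 12 leading genes were Ulk4, Tenm2, Epb41l1, Cacnb1, Etv4, Etv5, Frs3, Gbp2, Srrm3, Nup210l, Shkbp1 and Alk, all at an adjusted p of 0.728 or 0.913. Ulk4, a gene of the Unc-51-like kinase family (chromosome 9, 120955351 to 121277197, minus strand, GRCm38), had 284, 519, 457, 379.9, 407, 329 and 423 normalized counts in RGFP966 eyes, against 211, 247, 199, 258, 281 and 336 in vehicle eyes. In 5 of 7 RGFP966 eyes it exceeded every vehicle eye, and the difference was 0.66 ± 0.15. Tenm2, which encodes a teneurin, an adhesion molecule of synapses (chromosome 11, 36006656 to 37235964, minus strand), averaged 438 ± 134 in RGFP966 eyes and 252 ± 71.7 in vehicle eyes (SD, n = 7 and 6), a difference of 0.80 ± 0.19. Epb41l1, which encodes the neuronal cytoskeletal adaptor 4.1N (chromosome 2, 156420909 to 156543214, plus strand), had 2536, 2619, 2395, 2465, 2450, 2336 and 2378 normalized counts in RGFP966 eyes, against 2031, 2311, 1920, 1977, 1941 and 2217 in vehicle eyes. Its groups did not overlap, by a narrow margin, and the difference was 0.24 ± 0.06. Among the others, Cacnb1, which encodes a calcium channel beta subunit, was at 0.41 ± 0.11, Srrm3, a splicing regulator of neuronal microexons, at 0.36 ± 0.10, and Alk, a receptor tyrosine kinase, at 0.47 ± 0.14.

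Etv4 and Etv5 encode ETS transcription factors, and Frs3 encodes a docking protein of growth factor receptors. Etv4 (chromosome 11, 101769742 to 101785371, minus strand) had 240.1, 183, 190.5, 252, 128, 227 and 185 normalized counts in RGFP966 eyes, against 137, 149, 98.98, 120.2, 182 and 95.97 in vehicle eyes. RGFP966 male B lay among the vehicle eyes, the other RGFP966 eyes lay above every vehicle eye, by a narrow margin over vehicle male C, and the difference was 0.60 ± 0.16. Etv5 averaged 516 ± 62.5 in RGFP966 eyes and 414 ± 54.95 in vehicle eyes (SD, n = 7 and 6), a difference of 0.34 ± 0.10, and Frs3 was at 0.40 ± 0.11. Spry2, Spry4 and Dusp6, which are named after their values were seen, had no common direction. Over all alternatives Spry4 ran from 0.186 to 0.501, Spry2 from -0.0434 to 0.158 and Dusp6 from -0.146 to 0.0135. With females and males fitted alone, Spry2 was at 0.158 and -0.0434, Spry4 at 0.478 and 0.222 and Dusp6 at -0.146 and -0.018. A shared pathway was not tested.

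On the lower side the 12 leading genes were Glp2r, Plvap, Dpy19l3, Mzf1, Serpina3n, Sec22a, Lims1, Zfp777, Wdr81, Optc, Gtf2a1 and Cwf19l1, also at an adjusted p of 0.728 or 0.913. Glp2r, the gene of the glucagon-like peptide 2 receptor (chromosome 11, 67661502 to 67771153, minus strand), had 3704, 3810, 3823, 3040, 3202, 2957 and 3681 normalized counts in RGFP966 eyes, against 5019, 4156, 4724, 3504, 4624 and 4348 in vehicle eyes. Of the vehicle eyes, male B alone fell within the RGFP966 range, and the difference was -0.36 ± 0.09. Mzf1, which encodes a zinc finger transcription factor (chromosome 7, 13042303 to 13054764, minus strand), had 316, 290.2, 374, 309, 228, 219 and 276 normalized counts in RGFP966 eyes, against 345, 366, 433, 362, 356 and 368 in vehicle eyes. RGFP966 female C alone overlapped the vehicle eyes, and the difference was -0.40 ± 0.11. Dpy19l3, the gene of a C-mannosyltransferase, was at -0.81 ± 0.21 and Lims1, the gene of the focal adhesion protein PINCH1, at -0.28 ± 0.08. Plvap, which forms the diaphragms of fenestrated capillaries such as those of the choroid, averaged 69.1 ± 13.8 in RGFP966 eyes and 109 ± 22.5 in vehicle eyes (SD, n = 7 and 6), a difference of -0.68 ± 0.17. In bulk tissue, fewer cells of a type and less RNA per cell cannot be told apart. Of 12 endothelial markers, Plvap included, 8 had a higher mean and the median was 0.06.

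**Figure D3:**
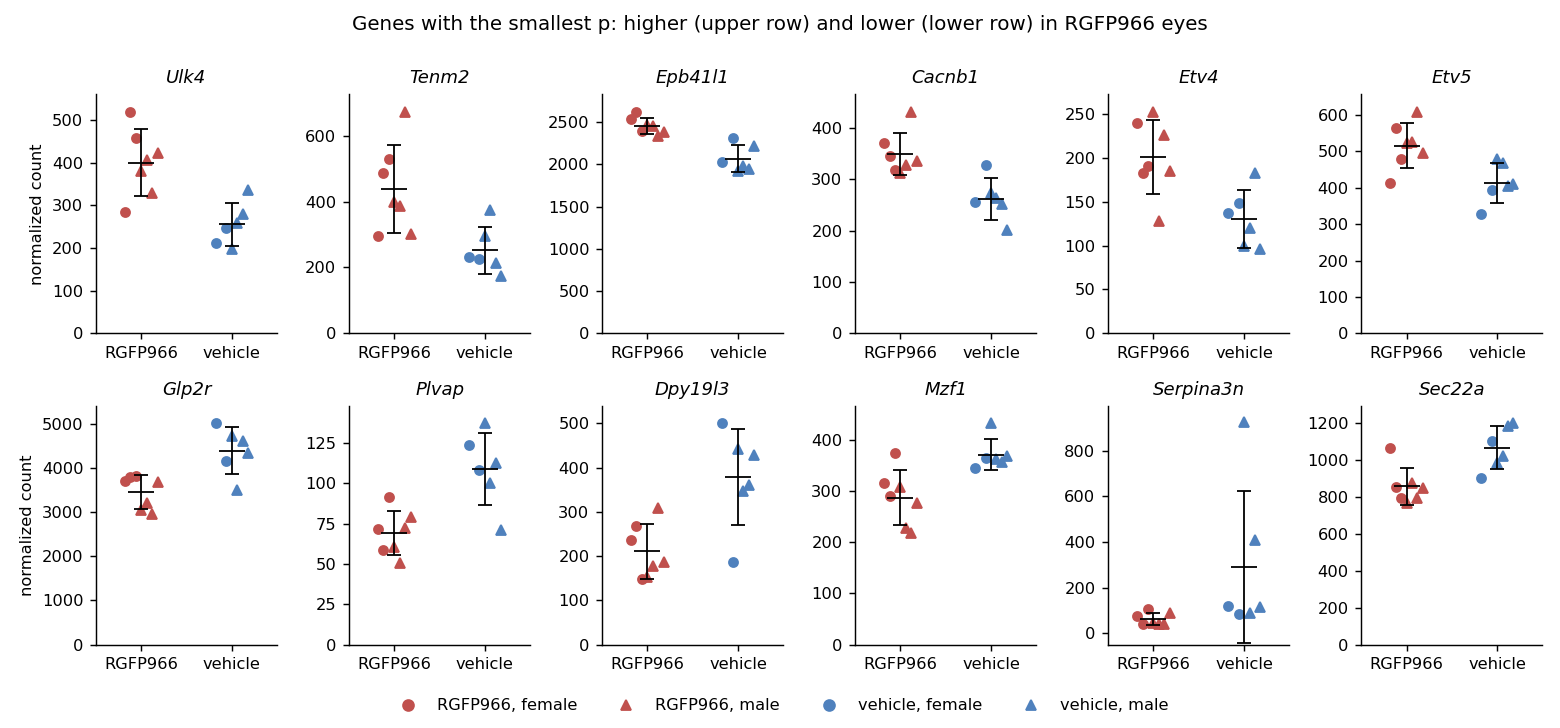
Normalized counts per library of the 6 genes with the smallest p on each side, RGFP966 (red, left) and vehicle (blue, right), circles for females and triangles for males, with bars for the mean and SD (n = 7 and 6). The groups overlap in every panel except Epb41l1, and in Serpina3n the vehicle spread comes from the males A and C at 923 and 407.

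Over all genes, 19 had groups that did not overlap (0.120%), 7 higher (0.0444%) and 12 lower (0.0761%) in RGFP966 eyes. Apart from Epb41l1 they are named after their values were seen. With 1716 ways to assign the 7 and 6 labels, full separation in a given direction has a probability of 0.000583 by chance. The shares seen in each direction were close to that, so the count of 19 is about what chance gives. Fgf3, Iqce, Nme2, Pik3c2b, Ppp1r18 and Tmem189 were higher, by 0.25 (Ppp1r18) to 0.84 (Fgf3). Klf13, Abhd15, Acaa2, Cdadc1, Ebpl, Grn, Kctd5, Pigt, Rbm39, Tsg101, Xpnpep3 and Zbtb8os were lower, at -2.36 (Abhd15) to -0.14 (Rbm39). Klf13, the gene of a Krüppel-like transcription factor, had 256, 287, 273, 270.4, 337, 344 and 324 normalized counts in RGFP966 eyes, against 434, 439, 642, 369.6, 389.8 and 412 in vehicle eyes. Vehicle male A stood above the other vehicle eyes, and the difference was -0.56 ± 0.18 with an adjusted p of 0.913. Grn, which encodes the lysosomal protein progranulin, had 542 to 646 in RGFP966 eyes, against 660 to 793 in vehicle eyes, and was at -0.27 ± 0.09.

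Gm49450, a predicted gene (chromosome 15, 98932137 to 98953551, minus strand), is also named after its values were seen. It was listed at 0 in 6 of 7 RGFP966 eyes and at 13.04 in female A, against 10.1 and 34.4 normalized counts in vehicle females and 28.1, 61.6, 19.6 and 48.95 in vehicle males. A fitted difference against values listed at 0 depends on the pseudocount and is not given. With limma its adjusted p was 0.728 as reported, 0.0742 in the 13 uncrushed libraries fitted alone and 0.00828 in males alone (4 against 4), where it was the one gene that passed. In crushed eyes it had 0, 18.8, 7.92, 238, 0, 50.4 and 33.1 normalized counts in RGFP966 mice, against 16.7, 11.2, 0, 36.1, 0 and 6.38 in vehicle mice. There it was listed at 0 in 2 eyes of each group, and RGFP966 male A, at 0 in the uncrushed eye, was highest.

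Serpina3n encodes a secreted protease inhibitor and is a marker of reactive astrocytes (chromosome 12, 104406729 to 104414329, plus strand). It had 74.8, 39.5, 108, 45.1, 42.4, 39.6 and 90.3 normalized counts in RGFP966 eyes, against 119.6, 84.8, 923, 88.4, 407 and 114 in vehicle eyes. Vehicle males A and C lay far above all other eyes, and vehicle female C and male B lay within the RGFP966 range. The difference was -1.63 ± 0.43 with an adjusted p of 0.913, and -1.18 without vehicle male A and -1.42 without vehicle male C. It was -0.55 in females fitted alone and -2.26 in males fitted alone.

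Optc encodes opticin, a vitreous protein secreted by the ciliary epithelium at the edge of the retina, and it was high in the same vehicle eyes. It had 18.7, 21.4, 31.01, 22.4, 22.4, 16.6 and 14.3 normalized counts in RGFP966 eyes, against 198, 26.7, 353, 33.4, 832 and 167 in vehicle eyes. Vehicle female C overlapped the RGFP966 eyes, and vehicle males A and C and female A were highest. Penk and Crhbp, which encode an opioid precursor and a binding protein of corticotropin-releasing hormone and are named after their values were seen, were highest in the same 3 eyes, with Penk at 815, 1456 and 436, against 15.04 to 59.2 in RGFP966 eyes. So were the pigment cell genes Pmel, at 487, 186 and 113, against 18.4 to 73.8 in RGFP966 eyes, and Gpnmb, at 869.6, 382 and 162, against 49.7 to 143. Of 11 pigment epithelium genes tested 4 were higher and 7 lower, and their summed level was 930 to 5682 in RGFP966 eyes, against 952 to 5552 in vehicle eyes. In crushed eyes Optc was at -1.44 ± 0.82, Serpina3n at -0.68 ± 0.43 and Crhbp at -1.58 ± 0.69, with Gpnmb at -0.09 ± 0.59. The part of tissue from the retinal edge in these differences was not tested.

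**Figure D4:**
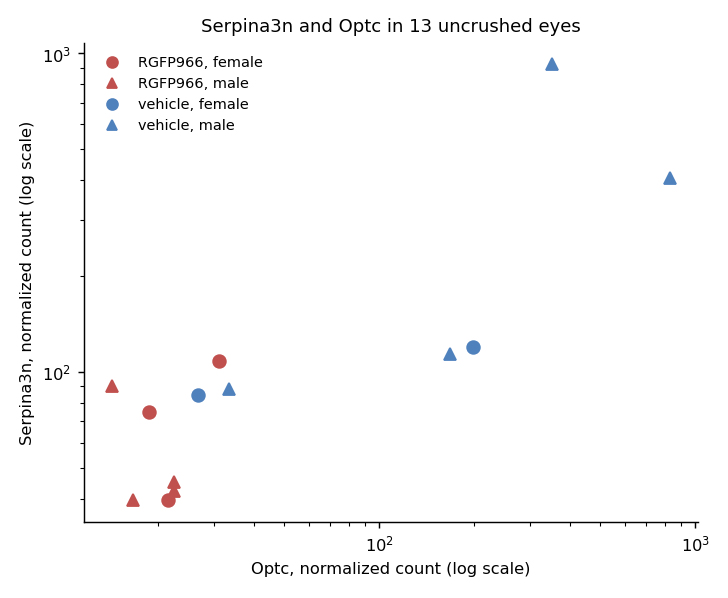
Normalized counts of Serpina3n and Optc in the 13 uncrushed eyes on log scales, RGFP966 in red and vehicle in blue, circles for females and triangles for males. The 7 RGFP966 eyes have Optc at 14.3 to 31.01 and Serpina3n at 39.5 to 108, and the highest Serpina3n values are in the vehicle males A and C.

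Other markers of reactive glia had no common direction. Gfap, an intermediate filament gene of astrocytes and of Müller cells under stress, had 296, 297, 266, 229, 239.6, 173 and 362 normalized counts in RGFP966 eyes, against 156, 266, 333, 258, 130.1 and 289.7 in vehicle eyes. The ranges overlapped, and the difference was 0.20 ± 0.20 with an interval of -0.20 to 0.60. Lcn2, which encodes a secreted iron-carrier protein of reactive astrocytes, was at -0.02 ± 0.24, C3, the central complement component, at -0.26 ± 0.49 and Vim, another intermediate filament gene, at 0.04 ± 0.10. Cxcl10, the gene of an interferon-induced chemokine, was listed at 0 in 3 of 7 RGFP966 eyes and in 5 of 6 vehicle eyes and was at most 6.11 normalized counts. Of 12 pan-reactive astrocyte genes 7 had a higher and 5 a lower mean, and Serpina3n and the metalloreductase gene Steap4, at -1.09 ± 0.43, were those at an unadjusted p under 0.05. Of 18 Müller gliosis genes, 15 of which passed for crush in vehicle mice (against 5.34% of all genes), 0 passed for the drug in uncrushed eyes, and their median was 0.05. All 14 Müller glia markers had intervals within 1.5-fold, with Glul, the gene of glutamine synthetase, at -0.02 ± 0.08.

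Microglial markers had a median of 0.01 over 17 genes, and 0 passed. Cx3cr1, the gene of the fractalkine receptor, was at 0.01 ± 0.16 and Aif1, the gene of IBA1, at -0.07 ± 0.33. Trem2, which encodes a lipid receptor of microglia, had 61.8, 29.3, 43.9, 44.7, 21.7, 33.9 and 34.05 normalized counts in RGFP966 eyes, against 22.6, 11.9, 25.1, 17.7, 24.2 and 47.4 in vehicle eyes. RGFP966 female A was highest, followed by vehicle male D, and the difference was 0.65 ± 0.26, and 0.42 without vehicle female C. Of 15 genes of activated microglia 12 were lower and 0 had an unadjusted p under 0.05. Of 15 complement genes 10 were lower, with Serping1, which encodes the C1 inhibitor, at -0.48 ± 0.20, and at -0.30 without vehicle male C. The complement list did not keep its direction in every fit: without vehicle male D 7 of 15 were lower and the median was 0.03, against -0.10 in all eyes, and 8 of 15 were lower in females and in males fitted alone.

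Among 26 interferon-response genes 0 passed, 5 were higher at an unadjusted p under 0.05 (background 2.23%) and 1 was lower (background 2.73%). In all, 19 of 26 had a higher mean, and the median was 0.07. That median was 0.14 without vehicle male D and 0.01 without both lens-rich libraries. Gbp2, an interferon-induced GTPase gene also used as a marker of neuroinflammatory astrocytes (chromosome 3, 142620602 to 142638008, plus strand), had 93.8, 95.7, 80.5, 65.4, 83.7, 54.7 and 84.5 normalized counts in RGFP966 eyes, against 42.2, 46.7, 50.2, 48.2, 62.6 and 62.5 in vehicle eyes. All RGFP966 eyes but male C exceeded every vehicle eye, and the difference was 0.60 ± 0.17. Bst2, which encodes an antiviral tether, was at 0.49 ± 0.22, the RNA sensor gene Ifih1 at 0.37 ± 0.15, the ADP-ribosyltransferase gene Parp14 at 0.28 ± 0.14 and Irf9, which encodes a subunit of the interferon-stimulated transcription complex, at 0.24 ± 0.10. The lower one was Igtp, an immunity-related GTPase gene, at -0.40 ± 0.18. Isg15, also central to the response, was at -0.02 ± 0.22.

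The interferon values were also taken by sex. With the sexes fitted alone, the median of the interferon list was 0.41 in females (3 against 2), where 22 of 26 were higher, and -0.01 in males (4 against 4), where 13 of 26 were higher. The microglial markers had a median of 0.23 in females, where 11 of 17 were higher, and -0.08 in males, where 6 of 17 were higher, with Trem2 at 1.34 in females and 0.27 in males. Their part in the interferon values was not tested. Nlrc5, which encodes the transactivator of MHC class I genes, had 63.6, 64.7 and 74.3 normalized counts in RGFP966 females, against 9.86 and 9.42 in vehicle females. It had 26.3, 14.1, 4.98 and 5.41 in RGFP966 males, against 16.3, 4.38, 17.5 and 18.6 in vehicle males. The female groups did not overlap and the male groups did. In limma its sex by drug interaction had an unadjusted p of 0.000432 and an adjusted p of 0.94, and over all genes 0 passed for that interaction, with 749 at an unadjusted p under 0.05 (4.75%). The difference between the sexes in the list as a whole was not tested, and the vehicle females numbered 2.

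Rod genes were a little lower and most other neuronal markers a little higher, and 0 of them passed. All 18 rod genes had a lower mean in RGFP966 eyes, with a median of -0.12. Cnga1, the gene of the rod cyclic-nucleotide-gated channel, was at -0.15 ± 0.07, and at -0.09 without vehicle male D. Of the 176 genes with a mean of at least 10000 normalized counts, 77.8% were lower, against 50.2% of all genes. Under quantile normalization the rod median was -0.01 with 11 of 18 lower, and without vehicle male D it was -0.04 with 14 lower. Cone genes were higher in 12 of 13, with a median of 0.14. Without vehicle male D 9 of 13 were higher, with a median of 0.12, and the median was 0.06 in females and 0.20 in males fitted alone. Gngt2, which encodes the cone transducin gamma subunit, had 438, 458, 557, 478, 516, 708 and 576 normalized counts in RGFP966 eyes, against 391, 348, 447, 446, 436 and 414 in vehicle eyes. RGFP966 female A alone overlapped the vehicle eyes, and the difference was 0.36 ± 0.12.

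Of 15 bipolar cell markers 13 were higher, with Grm6, the glutamate receptor gene of ON bipolar cells, at 0.28 ± 0.10 and Isl1, a transcription factor gene, at 0.38 ± 0.14. Without vehicle male D 11 of the 15 were higher, the median was 0.03, against 0.09 in all eyes, and Isl1 was at 0.20. Higher means were also found for 13 of 15 amacrine, 7 of 7 horizontal and 18 of 23 ganglion cell markers, with medians of 0.14, 0.12 and 0.09. Without vehicle male D these 3 medians were 0.04, 0.02 and -0.04, with 8, 5 and 9 genes higher. In females fitted alone the bipolar, amacrine, horizontal and ganglion cell medians were -0.03, -0.07, -0.04 and -0.10, and in males 0.21, 0.28, 0.20 and 0.24. Th, the gene of tyrosine hydroxylase in dopaminergic amacrine cells, was at 0.72 ± 0.30 and Eomes, a transcription factor gene of some ganglion cells, at 0.66 ± 0.28. Th was at 0.45 without vehicle female A and Eomes at 0.37 without vehicle male D. The ganglion cell markers Rbpms and Nefl, which fell after crush in vehicle mice, were at 0.03 ± 0.17 and -0.02 ± 0.14.

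Transcripts of other tissues and of MHC class II genes varied between eyes. Lens genes had a median of 1.05 over 16 tested, with 0 at an unadjusted p under 0.05, and the median was -1.23 in females and 2.33 in males fitted alone. Cryaa, a crystallin gene named after its values were seen, had 26950 normalized counts in RGFP966 male A and 5741 in vehicle female A, and 252 or less in the other 11 eyes. Its difference was 1.13 ± 1.53, and -0.46 without RGFP966 male A. Red cell genes had a median of -1.24 over 5 tested, with summed levels of 300 to 5029 in RGFP966 eyes, against 389 to 7783 in vehicle eyes, and 0 at an unadjusted p under 0.05. MHC class II genes had a median of -0.34 over 7 tested, with Cd74, the invariant chain gene, at -1.30 ± 0.54 and an adjusted p of 0.913. With log2 Optc as a covariate, a fit that takes up part of the group difference, the list median was 0.19. Over all alternatives Cd74 ran from -1.59 to -0.04. Of 9 pericyte and smooth muscle genes 8 were higher, with a median of 0.20 and Tagln, a smooth muscle actin-binding protein gene, at 0.62 ± 0.25.

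The crushed eyes of the same mice are separate libraries. There, too, 0 of 15773 genes passed in limma (403 at an unadjusted p under 0.05, 2.55%), and the drug by crush interaction called 0 genes (327 at an unadjusted p under 0.05, 2.07%). Of the 24 leading genes 20 had the same sign in crushed eyes, against 69.4% of the 782 genes at an unadjusted p under 0.05 and 59.1% of all genes. Both eyes come from the same mice, so a shared sign cannot be taken as independent of the choice of these genes. In the fit with mouse as a block, the consensus correlation between eyes was -0.0286. That value is taken over all genes and does not describe the leading genes. Mzf1, Glp2r and Sec22a, which encodes a vesicle-trafficking protein, had an unadjusted p under 0.05 there as well. Mzf1 was at -0.41 ± 0.11 in crushed eyes, Glp2r at -0.31 ± 0.09 and Sec22a at -0.24 ± 0.09. Over all genes, 36 had an unadjusted p under 0.05 in both eyes (0.228%), and 35 of these had the same sign, 10 higher and 25 lower. Of these, named after their values were seen, Pde10a, a cyclic-nucleotide phosphodiesterase gene, was at 0.55 ± 0.18 in uncrushed eyes and 0.63 ± 0.18 in crushed eyes, and Prrt1, which encodes an AMPA receptor-associated protein, at 0.31 ± 0.10 in uncrushed eyes and 0.26 ± 0.10 in crushed eyes. Dio3 was at -1.59 ± 0.53 in crushed eyes. Crhbp and Fmod, also among the 25 lower genes and named after their values were seen, followed Optc. Across the 13 uncrushed eyes they correlated with Optc at r = 0.939 and 0.924. They are therefore not separate from the Optc pattern, whose part in the shared signs was not tested.

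With the values of both eyes averaged for each of the 13 mice, a fit added after the data were seen, 0 genes passed in limma, 1067 had an unadjusted p under 0.05 (6.76%) and the smallest adjusted p was 0.137. The genes at that p were Grm6, at 0.23 ± 0.04, and Myo18a, an unconventional myosin gene, at 0.31 ± 0.05. Both eyes of a mouse share that mouse, so these are 13 values and not 26.

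Some genes had a different sign in the crushed eyes. Gbp2 was at -0.24 ± 0.17 there, with an unadjusted interaction p of 0.00202, and Ulk4 at -0.04 ± 0.15, with 0.00253. Gfap was at -0.44 ± 0.20 in crushed eyes, with 908 to 1356 normalized counts in RGFP966 mice, against 1085 to 2131 in vehicle mice, and an unadjusted interaction p of 0.0289. The median of the interferon list was -0.23 in crushed eyes. No interaction passed after adjustment in limma, where these 3 genes had an adjusted p of 0.9996.

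**Figure D5:**
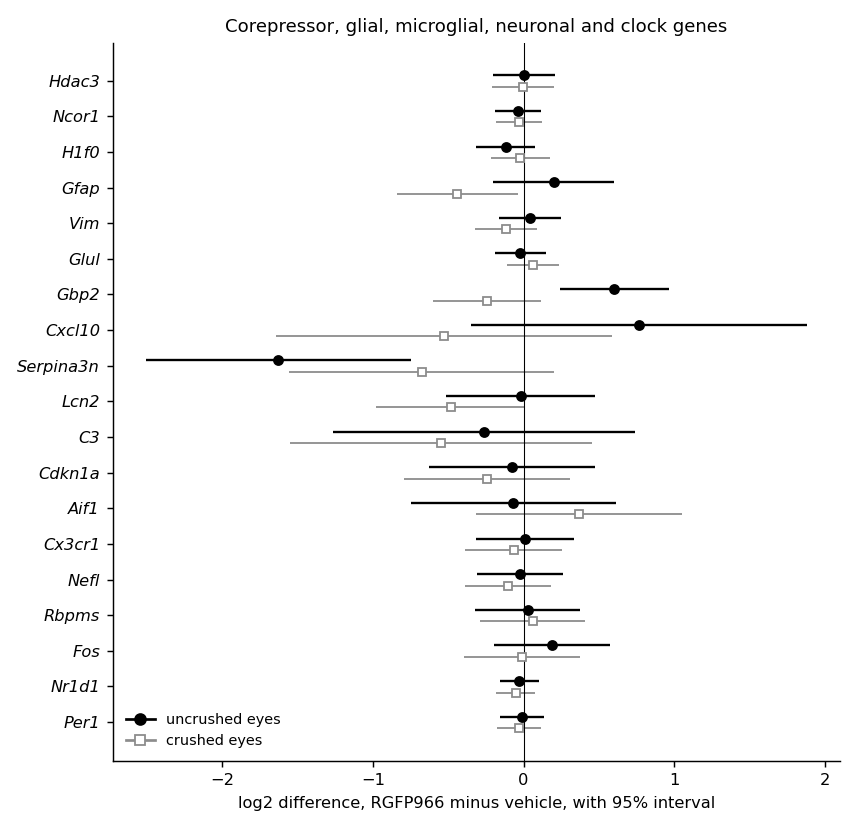
Log2 differences RGFP966 minus vehicle with 95% intervals from limma for 19 genes chosen by role, in uncrushed eyes (black circles, 7 against 6) and in crushed eyes of the same mice (grey squares, 7 against 6). In uncrushed eyes the interval excludes 0 for Gbp2 and Serpina3n and for none of the other 17, and both had an adjusted p of 0.913.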

How the data were processed

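RNA of mouse retinas was measured by sequencing. The submitters' processing notes name kallisto 0.46.1, DESeq2 (no version in those notes) and mm10. The deposited values are a signal, gene counts that the authors normalized with DESeq2, in 1 table of 28 columns. Between 41.1 and 64.3% of low values lay within 0.05 of a whole multiple of the library's step, so reads were not recovered, depth in reads is not known and no count test was run. The 2 columns that share a name were not used. Not analysed here were 26 entries with date-like symbols (0.115% of the total) and the transcripts of X inactivation. Sums of Y-linked genes matched the sex labels (137 to 228 in females, 4360 to 5450 in males). No 2 libraries were identical.

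Values were taken as log2(value + 1) and fitted with limma 3.58.1 in R 4.3.3 over 26 libraries in 4 groups. Sex was a covariate, and the empirical Bayes prior was trended. Both eyes of each mouse entered this fit as separate libraries, with no term for the mouse. With mouse as a block, 0 genes passed for the drug in uncrushed eyes, in crushed eyes and for the drug by crush interaction. Tests were two-sided, with Benjamini-Hochberg adjustment over 15773 genes and a threshold of 0.05, and the fit was tested on simulated data. The labels do not say how mice were housed or libraries batched, so p-values measure the spread between these samples. Crush was always on the right, so side and crush cannot be told apart.

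Named genes are the 12 with the smallest p in each direction at a mean of at least 50 (predicted genes left out), the 2 with the smallest p in each list, the genes behind list counts of 5 or fewer, and 19 set by role; some genes under this rule are not reported here, and the text marks others. Lists and members were chosen with earlier results of these data known. Positions are from GENCODE's annotation of GRCm38 (mm10). Alternatives covered scaling, pseudocount, filter, prior, library weights, blocks, single sexes and leaving out each uncrushed library.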

Additional observations from a re-analysis of the deposited data

Results flagged for a closer look

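For the named genes, the 13 uncrushed libraries gave 360 sets of values, each being 1 gene in 1 treatment. In 29 of them the highest or lowest library lay further from its nearest neighbour than Dixon's 95% value allows. Chance alone marks about 1 in 20 such sets. Values below are normalized counts, each followed by its nearest neighbour in the same treatment.

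Vehicle male D, which also stood apart on the second principal component, accounted for 7 of the 29. It was high in the rod channel gene Cnga1, at 27200 against 22500. It was also high in Rpl7, a ribosomal protein gene, at 8440 against 6540, in Spry2 at 1300 against 1050, in Ebpl at 4020 against 3180 and in Tsg101 at 2970 against 2460. Its Cxcl10 value was 3.31 with the other vehicle libraries listed at 0. It was low in the amacrine gene Tfap2a, at 244 against 395.

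Vehicle male A accounted for 4. It was high in Mzf1 at 433 against 368, in A2m, a protease inhibitor gene of gliosis, at 444 against 163, and in Klf13 at 643 against 439, and low in Aif1 at 4.07 against 15. Vehicle female A, a lens-rich library, was high in the crystallin genes Cryaa at 5740 against 45 and Crygd at 37.4 against 2.64, and low in Cwf19l1 at 364 against 448. Vehicle female C was low in Dpy19l3 at 188 against 348 and in Mmp12 at 1.45 against 7.95, and high in Wdr81 at 717 against 567. Vehicle male B was high in Tbl1xr1 at 1170 against 540 and low in Tmem189 at 226 against 278.

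RGFP966 male A, the other lens-rich library, was high in Cryaa at 26900 against 252 and in Gpnmb at 143 against 77.4, and low in Glul at 37500 against 43400. RGFP966 female A, whose labels disagree, was high in Sec22a at 1070 against 873 and in the AMPA receptor gene Gria4 at 1260 against 1090, and had Gm49450 at 13 with the other RGFP966 libraries listed at 0. RGFP966 male B was low in Elovl1, a fatty acid elongase gene, at 243 against 352, and in Isl1 at 1050 against 1260. RGFP966 male C was low in A2m at 64.6 against 109 and high in Iqce at 953 against 811.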

How the results depend on the processing

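The count of 0 genes for RGFP966 against vehicle in uncrushed eyes held in 30 of 31 alternatives; males fitted alone gave 1, Gm49450 (adjusted p 0.00828). Genes at an unadjusted p under 0.05 numbered 592 to 1240, with 1240 when no filter was set on the mean, against 782. Leaving out each uncrushed library gave 0 genes passing each time and 592 (without RGFP966 male C) to 1107 (without vehicle male C) at an unadjusted p under 0.05. The count was also 0 in crushed eyes and for the drug by crush interaction in the 26 alternatives run for each. Those that left out libraries left out uncrushed ones only, so dependence on single crushed libraries was not examined. For the sex by drug interaction the count was 0 in the 3 alternatives run for it (same total, robust prior, library weights). In crushed eyes under library weights 936 genes had an unadjusted p under 0.05, against 403. With a replicate block on the letters that both treatments share, 0 genes passed (833 at an unadjusted p under 0.05, smallest adjusted p 0.522). The letters do not pair the mice: deviations of same-lettered libraries correlated at -0.119 to 0.191.

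No named gene passed as reported. The signs below changed in genes whose difference exceeded its standard error, and the cause was not tested. In females alone Cpt1c was at -0.138, Serping1 at 0.214, Id1 at -0.00946, Tpm3 at -0.00835, Col1a1 at -0.227, Crygc at -1.16, Crybb2 at -1.35 and Pde10a at -0.114. In males alone Nlrc5 was at -0.274, Mmp12 at -0.0648 and Fos at -0.0165. With log2 Optc as a covariate, chosen after seeing the data, Crym was at -0.0149, Gpnmb at 0.453, Mrc1 at 0.409, Mlana at 0.857, Pmel at 0.57 and Crhbp at 0.215. Optc is itself among the leading lower genes, so that fit takes up part of the group difference by its construction. The fits without the lens-rich libraries, with a filter over the uncrushed libraries and on the mean of both eyes were also added after seeing the data. Setting all libraries to the same total shifted the median difference of all genes by 0.038.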

Other observations

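Besides Gm49450, the lowest fitted differences over the whole table were those of Fbln1, Gpx3, Mfap4 and Slc26a4. Fbln1, which encodes the matrix protein fibulin 1, averaged 21.7 ± 8.71 normalized counts in RGFP966 eyes and 428 ± 489 in vehicle eyes (SD, n = 7 and 6), a log2 difference of -3.12 ± 1.09 (SE). Gpx3, a secreted glutathione peroxidase gene, averaged 80.9 ± 27.0 in RGFP966 eyes and 1602 ± 1969 in vehicle eyes, a difference of -3.03 ± 1.04. Mfap4, a microfibril-associated protein gene, was at -3.02 ± 1.13 and Slc26a4, the gene of the anion exchanger pendrin, at -2.95 ± 1.09. With limma the adjusted p was 0.913 for each of these 4 genes. In Fbln1 and Gpx3 the SD of the vehicle eyes exceeded their mean. Across the 13 uncrushed eyes, Fbln1, Gpx3 and Slc26a4 correlated with Optc at r = 0.983, 0.973 and 0.955. Their low values are therefore not separate from the Optc pattern described above. All genes named here were picked by their values, and no test was made of them as a group.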
